A study of Homo sapiens with 8 samples.

Results

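The 8 genes described here encode ATP-binding cassette (ABC) transporters that move drugs or lipids out of cells: ABCB1, ABCC1, ABCC3, ABCC4, ABCC5, ABCG2, ABCA1 and ABCG1. They were chosen by gene symbol and are 8 of 63967 gene labels in the table. Their RNA was measured by RNA-seq in Raji and Raji-4RH cells. Raji is an established Burkitt lymphoma B cell line that responds to rituximab, an antibody against CD20. Raji-4RH was derived from Raji by repeated rituximab exposure, is resistant to rituximab and, per the study, also resists several chemotherapy drugs. It is 1 line, so a difference between the lines cannot be told apart from other differences acquired during selection. Each line received DMSO, the vehicle, or chidamide, an inhibitor of histone deacetylases, at 3 µM over 24 h. The 4 groups held 2 libraries each, 8 in all. Cells were kept for 2 to 3 passages and collected by flow sorting, with the gate not given in the sources used here. The labels do not say that the 2 libraries of a group came from separate cultures, so the p-values measure only the spread between these libraries, which may be technical. With 2 libraries against 2, an exact two-sided permutation test cannot give a p-value under 0.333, and the adjusted p-values below rest on the spread that the limma model shares between genes.

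ABC transporters bind and split ATP on the inside of the membrane and use the energy to carry substrates across it. ABCB1 (P-glycoprotein) exports bulky hydrophobic drugs such as vinca alkaloids, anthracyclines and taxanes, and is a classical cause of multidrug resistance in cultured tumour cells. The multidrug resistance proteins of subfamily C export conjugated anions and nucleotide-like molecules, and ABCG2 exports drugs such as topotecan and mitoxantrone. ABCA1 and ABCG1 move cholesterol and phospholipids out to lipoproteins, and both are known targets of the liver X receptors, which sense oxysterols. These roles are background and were not measured here.

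Expression is given in FPKM, fragments scaled to gene length and to the library's read total, as the authors deposited it. The values correspond to whole reads, so the number of reads behind each value is known. The libraries held 13991697 to 21193441 reads, lowest in Raji-4RH chidamide replicate 1. The table lists more labels than rows of values, and past the first block of labels the values stand below their labels. Genes were given the values of the shifted row (18143 labels, with 90.75% to 93.22% of the reads of each library). ABCB1, ABCC1, ABCC3, ABCC4, ABCC5 and ABCG2 lie in the rows that are not shifted. ABCA1 and ABCG1 were read 3 rows below their labels, where the placed ABCA1 row held 16939 reads over all libraries and the ABCG1 row 528. The row of the ABCA1 label itself held 0 reads and that of ABCG1 held 50. Near them, SYK, a kinase of B cells, was placed on 37601 reads, and the trefoil factors TFF3, TFF2 and TFF1 of mucous epithelia were placed on 5, 2 and 0 reads. All 7 B cell markers used (CD79A, CD79B, MS4A1, CD22, PAX5, CD74 and BLK) were at 1 FPKM or more in every library, and their sum was 1295 to 2217 FPKM. Markers of other cells were low and moved with chidamide. The sum of 4 T cell markers was 0.0712 to 0.0783 FPKM in Raji DMSO, 0.815 to 1.06 in Raji chidamide, 0.647 to 0.891 in Raji-4RH DMSO and 3.96 to 4.89 in Raji-4RH chidamide. The sum of the 4 placed myeloid markers, of 5 listed, went from 1.03 to 1.04 FPKM in Raji DMSO to 9.71 to 9.73 with chidamide, and from 0.917 to 0.991 in Raji-4RH DMSO to 9.79 to 10.7. The 4 fibroblast markers summed to 0.144 to 0.191 FPKM in Raji DMSO and 2.16 to 2.35 with chidamide, and to 0.0410 to 0.0765 in Raji-4RH DMSO and 1.16 to 1.30 with chidamide. Of 3 erythroid markers 1 was placed, at 0 to 0.0105 FPKM. The part of these markers in the chidamide results below was not tested. A change in the number of cells of a type and a change in RNA per cell cannot be told apart in such bulk samples.

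Promoter sequences help to place the members in the genome, and those of the members that changed are shown here. RefSeq (GRCh38.p14) windows of 300 bases around a start site were found for 5 of the 8 members. Those of ABCG2 are not printed, since it was near 0 throughout, and none is printed for ABCC1, ABCC3 and ABCG1. ABCB1 has 2 windows. On the minus strand, the first (chr7:87713246-87713545) holds the starts of 4 of the 11 transcripts in GENCODE v29, and the second (chr7:87600835-87601134) holds 1. The ABCA1 window (chr9:104928106-104928405, minus strand) holds 3 of 4 transcript starts. That of ABCC5 (chr3:184017835-184018134, minus strand) holds 9 of 13, and that of ABCC4 (chr13:95301402-95301701, minus strand) holds 8 of 17. Capitals mark matches, on either strand, to 4 motifs: the CCAAT box, the GC box with the letters GGGCGG, the box of the TATA type with the letters TATAAA, and the E-box with the letters CACGTG. No matches overlapped in these windows. The sequences run 5′ to 3′ along the gene.
ABCB1 first window: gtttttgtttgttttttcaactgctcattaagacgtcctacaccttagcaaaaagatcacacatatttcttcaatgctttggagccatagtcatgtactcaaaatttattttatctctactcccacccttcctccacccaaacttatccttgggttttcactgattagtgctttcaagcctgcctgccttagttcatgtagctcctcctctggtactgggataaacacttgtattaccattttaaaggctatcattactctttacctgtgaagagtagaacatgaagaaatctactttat
ABCB1 second window: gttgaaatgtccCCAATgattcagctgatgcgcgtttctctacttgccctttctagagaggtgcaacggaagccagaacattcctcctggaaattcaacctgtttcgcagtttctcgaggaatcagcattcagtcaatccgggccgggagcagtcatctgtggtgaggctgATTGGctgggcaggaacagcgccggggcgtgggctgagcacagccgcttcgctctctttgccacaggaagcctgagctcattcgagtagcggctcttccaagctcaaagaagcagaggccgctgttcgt
ABCA1: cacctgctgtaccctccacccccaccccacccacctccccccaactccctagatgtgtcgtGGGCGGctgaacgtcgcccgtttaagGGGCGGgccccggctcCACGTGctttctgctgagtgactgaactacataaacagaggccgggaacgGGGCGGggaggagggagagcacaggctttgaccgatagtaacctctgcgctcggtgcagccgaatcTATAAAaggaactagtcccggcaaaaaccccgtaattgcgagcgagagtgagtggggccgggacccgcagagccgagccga
ABCC5: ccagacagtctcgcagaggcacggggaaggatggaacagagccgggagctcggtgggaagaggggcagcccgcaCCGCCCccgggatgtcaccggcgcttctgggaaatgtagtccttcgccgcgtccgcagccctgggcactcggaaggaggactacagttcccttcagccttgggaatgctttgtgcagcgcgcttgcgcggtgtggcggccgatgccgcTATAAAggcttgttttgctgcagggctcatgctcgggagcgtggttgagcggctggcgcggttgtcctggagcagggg
ABCC4: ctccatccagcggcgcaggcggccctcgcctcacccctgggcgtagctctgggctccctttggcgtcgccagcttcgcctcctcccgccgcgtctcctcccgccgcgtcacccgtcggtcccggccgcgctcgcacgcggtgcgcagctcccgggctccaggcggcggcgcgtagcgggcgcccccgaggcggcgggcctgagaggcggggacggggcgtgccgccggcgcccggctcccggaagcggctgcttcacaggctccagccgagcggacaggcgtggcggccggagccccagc

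The second ABCB1 window holds CCAAT 2 times, once on each strand, and none of the other motifs, and the first window holds none of the 4. The ABCA1 window holds GGGCGG 3 times, TATAAA once and CACGTG once. ABCC5 has GGGCGG once, on the opposite strand, and TATAAA once, while the ABCC4 window, with a GC content of 79.7%, has none of the 4. Among all 35116 RefSeq windows of the same length, 34.6% hold CCAAT, 44.95% hold GGGCGG, 11.5% hold TATAAA and 7.26% hold CACGTG. A match describes letters in a window and not a site in use, and the table gives 1 value per gene, so the start sites used in these cells were not measured.

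In every group ABCC1 had the highest level of the 8 members and ABCC3 and ABCG2 were near the limit of the counts. In Raji DMSO the order of mean FPKM, which is per length and so compares genes, was ABCC1 (24.5 ± 1.05, SD, n = 2), ABCC4 (14.1 ± 0.587), ABCC5 (5.44 ± 0.190), ABCA1 (4.66 ± 0.509), ABCG1 (0.250 ± 0.0209), ABCB1 (0.0389 ± 0.00665), ABCC3 (0.0340 ± 0.0115) and ABCG2 (0.0102 ± 0.0145). The libraries of ABCB1 and ABCC3 overlapped there. Raji-4RH DMSO had another order, with ABCC1 (18.1 ± 0.155) followed by ABCA1 (14.3 ± 0.679), ABCC5 (9.37 ± 0.188), ABCC4 (8.64 ± 0.338), ABCB1 (0.950 ± 0.0582) and ABCG1 (0.181 ± 0.0827), and with ABCC3 and ABCG2 listed at 0. In Raji-4RH chidamide, ABCC1 (18.6 ± 1.97) and ABCA1 (16.7 ± 0.582) differed by less than the SD of ABCC1. The order in Raji chidamide was that of Raji DMSO. The length used for ABCC4 in the file is 7819 bases against 8635 joined exon bases in GENCODE v29, and for ABCG2 4848 against 5044, which scales their FPKM when compared with other genes but not their changes.

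**Figure D1:**
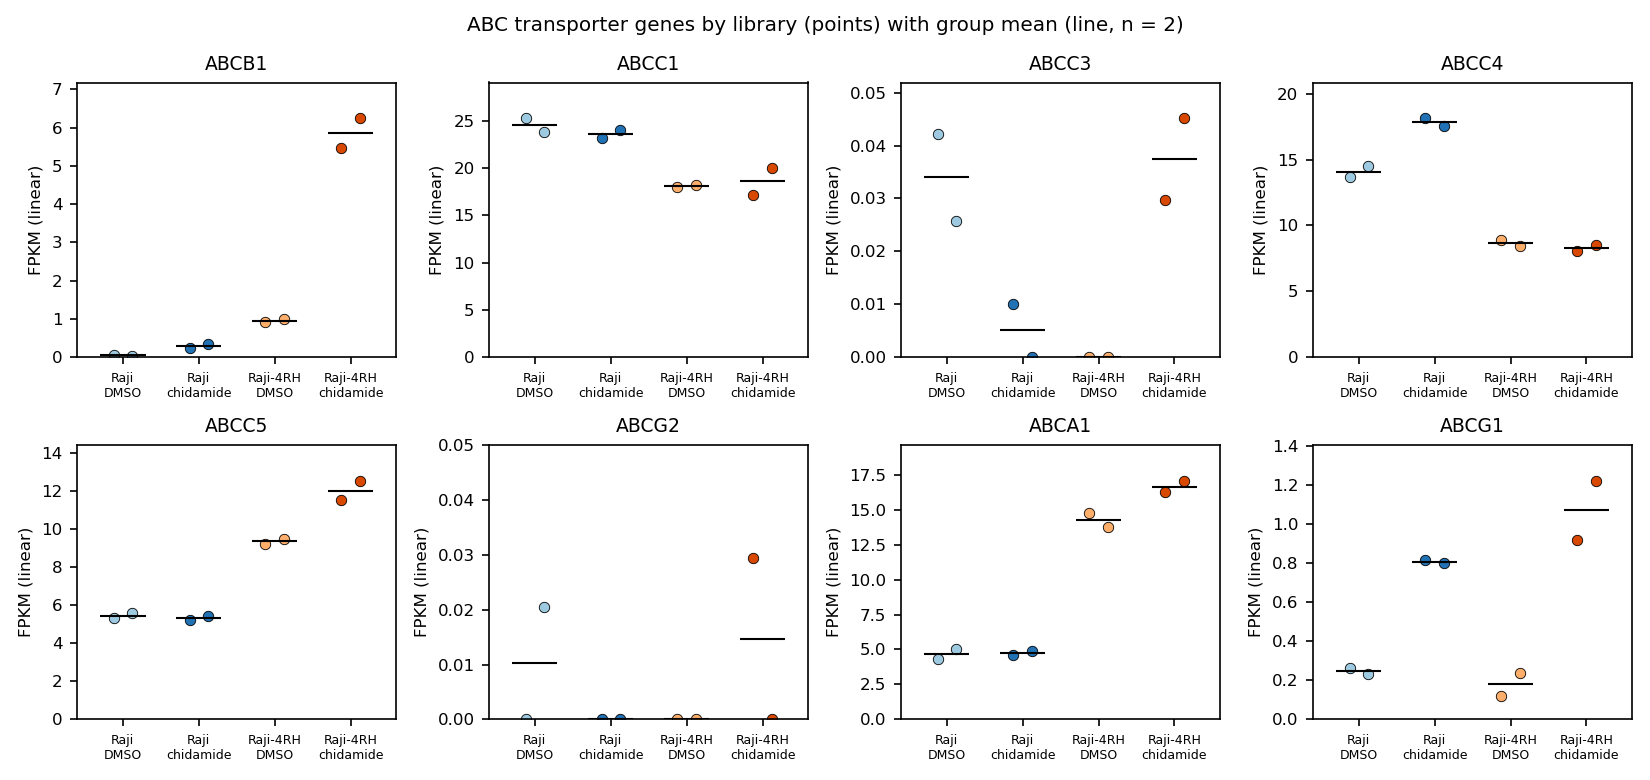
FPKM of the 8 members on linear axes that start at 0 and differ between panels, for Raji and Raji-4RH with DMSO or chidamide. Points are the 2 libraries of a group and lines the group mean. ABCB1 was at or below 0.992 FPKM except in Raji-4RH chidamide (5.47 and 6.25), ABCA1 was at 13.8 or more in Raji-4RH and at 5.02 or less in Raji, and no ABCC3 or ABCG2 library exceeded 0.0452 FPKM.

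The 10710 genes that reached 1 FPKM in 2 or more libraries were tested with limma on log2(FPKM + 1), with Benjamini-Hochberg adjustment over all of them, and were called at an adjusted p-value under 0.05. A difference on this scale understates the change of low genes. Of the members, ABCB1, ABCC1, ABCC4, ABCC5 and ABCA1 were tested, while ABCG1, ABCC3 and ABCG2 were below the filter. ABCB1 passed the filter only through the 2 Raji-4RH chidamide libraries, the group in which it is called high, so its call there is partly set by the filter. The same holds for ABCB4, ABCA5, HMOX1 and RUNDC3B among the genes described below. ABCA6 passed only through Raji chidamide, and ABCA2, ABCB9 and ATP7B passed only through chidamide libraries. Most genes differed in these libraries, so a call alone sets no gene apart. With chidamide, 74.9% of the tested genes were called in Raji-4RH, 4642 higher and 3380 lower, and 60.0% in Raji. After quantile normalization the Raji-4RH split was 3718 higher and 4057 lower, as the median log2 difference over all genes moved from 0.09 to -0.02, and the changes below may be read against that median. Between the lines 73.6% of the genes were called in DMSO and 79.3% with chidamide. The effect of chidamide differed between the lines for 48.8%.

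The first question was how chidamide changed the drug exporters. ABCB1 (ENSG00000085563, chr7:87503633-87713323, minus strand, GRCh38) was low in Raji and higher in Raji-4RH, and it rose with chidamide in both lines. In Raji DMSO it had 0.0436 and 0.0342 FPKM, from 5 and 4 reads. With chidamide the Raji libraries had 0.226 and 0.331 FPKM, from 27 and 40 reads. Both Raji chidamide libraries were thus above both DMSO libraries, and all 4 were below those of Raji-4RH. In Raji-4RH DMSO ABCB1 had 0.909 and 0.992 FPKM (99 and 122 reads), and with chidamide 5.47 and 6.25 FPKM (444 and 668 reads). The ratio of chidamide to DMSO was 6.16 in Raji-4RH (95% counting interval 5.36 to 7.20) and 7.15 in Raji (3.56 to 16.4). These intervals are exact for the pooled reads of a group and cover counting error only. On log2(FPKM + 1) the difference was 1.81 in Raji-4RH (SE 0.0747, limma adjusted p = 2.095e-07) and 0.30 in Raji (SE 0.0747, limma adjusted p = 0.008534). The Raji value lost its call after quantile normalization (0.14, limma adjusted p = 0.1378) and without Raji chidamide replicate 2 (0.24, limma adjusted p = 0.06846). With a model of the recovered reads (limma voom) it was 2.69 (SE 0.55, adjusted p = 0.001233), beside 2.62 (SE 0.14, adjusted p = 2.46e-08) in Raji-4RH.

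Whether the chidamide effect on ABCB1 differed between the lines depended on the scale. On log2(FPKM + 1) the rise was larger in Raji-4RH by 1.51 (SE 0.106, limma adjusted p = 2.275e-05). With a pseudocount of 0.1 in place of 1 the difference was 1.07 (SE 0.230, limma adjusted p = 0.006765). On the recovered reads it was -0.07 (SE 0.566, limma voom adjusted p = 0.93), so that a difference in fold between the lines was not detectable with 9 reads in Raji DMSO. In absolute terms the mean rose by more in Raji-4RH, from 0.950 ± 0.0582 to 5.86 ± 0.552 FPKM (SD, n = 2), than in Raji, from 0.0389 ± 0.00665 to 0.278 ± 0.0743 FPKM.

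ABCB1 overlaps RUNDC3B on the opposite strand, with 0 shared exonic bases, and lies next to its close relative ABCB4, a phosphatidylcholine transporter of bile. How reads that fit 2 related genes were counted is not given in the sources used here. ABCB4 (chr7:87401697-87480435) had 0 and 1 reads with DMSO and 31 and 31 with chidamide in Raji, 91 and 89 in Raji-4RH DMSO, and 115 and 164 in Raji-4RH chidamide. RUNDC3B (chr7:87627548-87832296) had 2 and 0 reads with DMSO and 4 and 1 with chidamide in Raji, 65 and 68 in Raji-4RH DMSO, and 135 and 139 in Raji-4RH chidamide. All 3 neighbours were thus higher in every Raji-4RH library than in any Raji library of the same treatment. The baseline ratio of Raji-4RH to Raji was 24.4 for ABCB1 (12.7 to 54.3) and 65.9 for RUNDC3B (18.0 to 554). For ABCB4, with 1 read in Raji DMSO, it was 182, with an interval of 31.9 to 7139. With chidamide in Raji-4RH, ABCB4 had a ratio of 1.89 (1.58 to 2.32) and RUNDC3B of 2.58 (2.06 to 3.15), both below the interval of ABCB1. On log2(FPKM + 1) ABCB4, which passed the filter only through Raji-4RH chidamide, rose by 0.42 in Raji-4RH (limma adjusted p = 0.0002186), but after quantile normalization the value was -0.33 (limma adjusted p = 0.003769). On recovered reads it was 0.93 (limma voom adjusted p = 0.0002529).

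**Figure D2:**
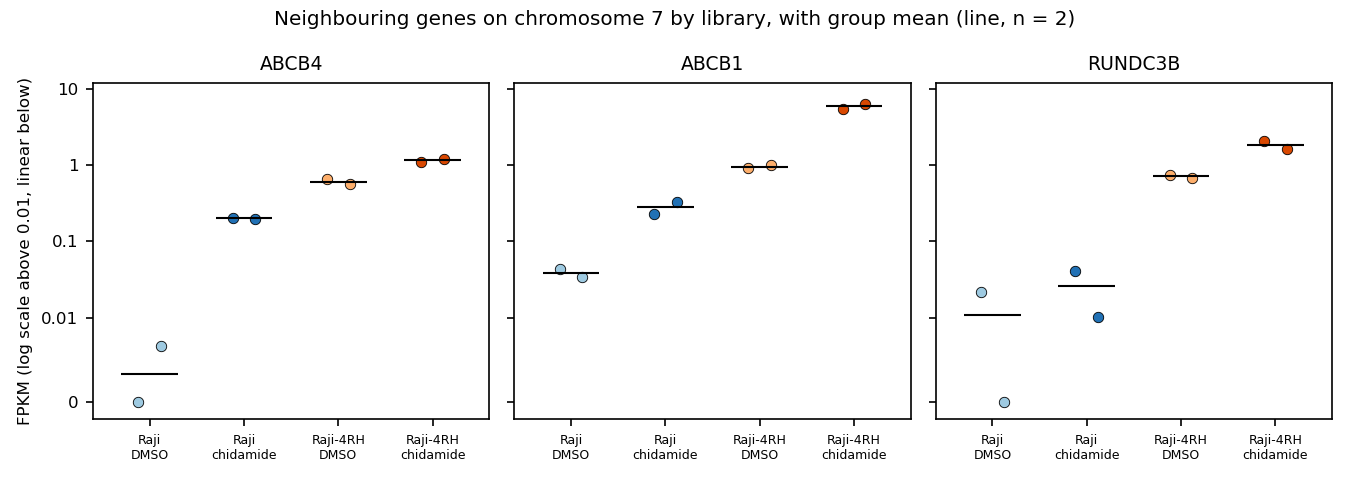
FPKM of ABCB4, ABCB1 and RUNDC3B in each library, on an axis that is logarithmic above 0.01 and linear below, with lines at the group mean (n = 2). All 3 genes were near 0 in Raji DMSO, at 0.560 to 0.992 FPKM in Raji-4RH DMSO and at 1.10 to 6.25 in Raji-4RH chidamide, while RUNDC3B stayed at 0.0412 or less in Raji chidamide.

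Of the 3 tested members of subfamily C, ABCC4 was called with chidamide in Raji, ABCC5 in Raji-4RH and ABCC1 in neither. ABCC10, a subfamily C gene that is not a member and was named after its values were seen, rose in both lines, by 0.50 in Raji (limma adjusted p = 0.001827) and 0.70 in Raji-4RH (limma adjusted p = 0.000162). ABCC4 (ENSG00000125257, chr13:95019829-95301475), which exports cyclic nucleotides and nucleotide-like drugs, had 13.7 and 14.5 FPKM in Raji DMSO and 18.1 and 17.6 with chidamide. In Raji-4RH it had 8.88 and 8.40 FPKM with DMSO and 8.06 and 8.54 with chidamide. The Raji groups did not overlap and the Raji-4RH groups did. ABCC4 rose in Raji by 0.32 (SE 0.0583, limma adjusted p = 0.001551), a ratio of 1.27 from 5786 and 4389 reads, and in Raji-4RH its difference was -0.05 (limma adjusted p = 0.4439, 95% interval -0.19 to 0.08). The effects differed between the lines by -0.38 (SE 0.0825, limma adjusted p = 0.006295).

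ABCC5 (ENSG00000114770, chr3:183919934-184018015), which also exports cyclic nucleotides, changed in the other line. Its values were 5.31 and 5.58 FPKM in Raji DMSO and 5.204 and 5.447 with chidamide, and these overlapped. In Raji-4RH they were 9.23 and 9.50 FPKM with DMSO and 11.5 and 12.5 with chidamide, with no overlap. ABCC5 rose in Raji-4RH by 0.33 (SE 0.0609, limma adjusted p = 0.001192), a ratio of 1.28 (1.24 to 1.35). In Raji its difference was -0.03 (limma adjusted p = 0.7439, 95% interval -0.17 to 0.11). The effects differed between the lines by 0.35 (SE 0.0861, limma adjusted p = 0.0101). 

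ABCC1 (ENSG00000103222, chr16:15949577-16143074, plus strand), which exports glutathione and its conjugates along with anthracyclines, was not called with chidamide in either line. Its libraries held 25.3 and 23.8 FPKM for Raji DMSO, 23.2 and 24.0 for Raji chidamide, 18.0 and 18.2 in Raji-4RH DMSO, and 17.2 and 19.99 in Raji-4RH chidamide. The chidamide difference was -0.05 in Raji (95% interval -0.22 to 0.11, limma adjusted p = 0.5561) and 0.03 in Raji-4RH (-0.14 to 0.20, limma adjusted p = 0.7126). After quantile normalization the Raji-4RH value was 0.19 and was called (limma adjusted p = 0.02734), whereas with median-centred libraries it was -0.05. ABCC3 (ENSG00000108846, chr17:50634777-50692252), an exporter of bile salts and glucuronides, had 8 and 5 reads with DMSO and 2 and 0 with chidamide in Raji, 0 and 0 in Raji-4RH DMSO, and 4 and 8 in Raji-4RH chidamide. No library exceeded 0.0452 FPKM. A count of 0 in Raji-4RH DMSO allows up to 0.00781 FPKM (3 reads over the group). ABCG2 (ENSG00000118777, chr4:88090264-88231322) had 2 reads in each of 2 libraries, Raji DMSO replicate 2 and Raji-4RH chidamide replicate 1, and 0 in the others. For ABCG2 the 0 counts allow up to 0.0149 FPKM in Raji chidamide and 0.0155 in Raji-4RH DMSO, and no difference between groups was detectable at this depth.

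The lipid exporters ABCA1 and ABCG1 behaved differently with chidamide. ABCG1 (ENSG00000160179, chr21:42199689-42297244, plus strand) had 32 and 29 reads in Raji DMSO and 103 and 102 with chidamide, or 0.265, 0.235, 0.817 and 0.800 FPKM. In Raji-4RH it had 14 and 31 reads with DMSO and 79 and 138 with chidamide, or 0.122, 0.239, 0.922 and 1.224 FPKM. Both chidamide groups were above both DMSO groups. The ratio of chidamide to DMSO was 3.23 in Raji (2.42 to 4.38) and 5.95 in Raji-4RH (4.30 to 8.39). ABCG1 was under the filter, and in a fit without it ABCG1 rose by 0.53 in Raji (limma adjusted p = 0.002326) and by 0.81 in Raji-4RH (limma adjusted p = 0.0001865) on log2(FPKM + 1). On recovered reads the values were 1.68 (limma voom adjusted p = 0.0007628) and 2.61 (limma voom adjusted p = 4.277e-05). The difference of these effects between the lines did not pass (0.28, limma adjusted p = 0.0979, and 0.93 on reads, limma voom adjusted p = 0.1193). Unlike ABCB1, ABCG1 did not differ between the DMSO groups beyond its spread, with a ratio of Raji-4RH to Raji of 0.722 (0.490 to 1.10) and a limma adjusted p of 0.4614.

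ABCA1 (ENSG00000165029, chr9:104781002-104928237, minus strand) differed mainly between the lines. Raji libraries held 4.30 and 5.02 FPKM with DMSO and 4.605 and 4.87 with chidamide, which overlap. Raji-4RH had 14.7 and 13.8 FPKM with DMSO and 16.2 and 17.1 with chidamide, each above every Raji library. ABCA1 rose with chidamide in Raji-4RH by 0.21 (SE 0.0741, limma adjusted p = 0.03007), a ratio of 1.168 (1.133 to 1.216). That call was lost with median-centred libraries (0.13, limma adjusted p = 0.1174), without Raji-4RH DMSO replicate 2 (0.16, limma adjusted p = 0.1652) and without Raji-4RH chidamide replicate 2 (0.18, limma adjusted p = 0.1024). In Raji the difference was 0.02 (95% interval -0.15 to 0.19, limma adjusted p = 0.827). The difference of the effects between the lines was 0.19 and did not pass (limma adjusted p = 0.1699), while after quantile normalization it was 0.42 and passed (limma adjusted p = 0.009408).

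The second question was how the lines differed without drug. All 5 tested members were called, where 73.6% of all tested genes were (41.2% higher and 32.4% lower), and in each of the 5 the 2 groups did not overlap, as in 88.5% of tested genes. ABCA1 was higher in Raji-4RH by 1.43 (SE 0.0741, limma adjusted p = 5.01e-07), a ratio of 3.06 (2.90 to 3.21). ABCB1 was higher by 0.91 (SE 0.0747, limma adjusted p = 8.621e-06) and ABCC5 by 0.69 (limma adjusted p = 1.37e-05), a ratio of 1.72 (1.64 to 1.81). ABCC4 was lower in Raji-4RH, with a difference of -0.64 (limma adjusted p = 1.556e-05) and a ratio of 0.614 (0.584 to 0.643). ABCC1 was lower as well, with a difference of -0.42 (limma adjusted p = 0.0008768) and a ratio of 0.739 (0.714 to 0.766). The drug exporters thus did not move in 1 direction: ABCB1 and ABCC5 were higher and ABCC1 and ABCC4 lower in the resistant line. The directions were the same after quantile normalization, with median-centred libraries and on recovered reads.

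With chidamide in both lines, the same 5 members were called, where 79.3% of all tested genes were (44.3% higher and 35.0% lower). ABCB1 passed the filter only through Raji-4RH chidamide, so this count is partly set by the filter. ABCB1 was higher in Raji-4RH by 2.42 (limma adjusted p = 2.128e-08), a ratio of 21.1 (16.6 to 27.6), ABCA1 by 1.62 (limma adjusted p = 1.914e-07) and ABCC5 by 1.04 (limma adjusted p = 8.101e-07). ABCC4 was lower, at -1.02 (limma adjusted p = 7.039e-07) and a ratio of 0.465 (0.444 to 0.491), and ABCC1 at -0.33 (limma adjusted p = 0.002799). The comparisons with DMSO and between the lines share libraries, so they are not independent.

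**Figure D3:**
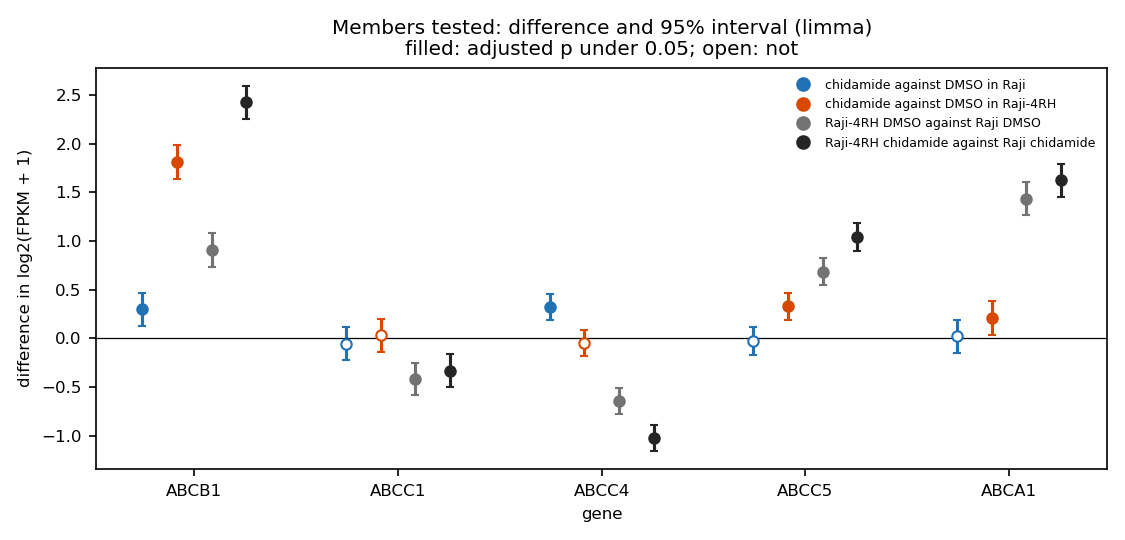
Difference in log2(FPKM + 1) of the 5 tested members in 4 comparisons, with 95% intervals from limma, filled where the adjusted p-value is under 0.05 and open where it is not. ABCB1 has the largest values (1.81 with chidamide in Raji-4RH and 2.42 between the lines with chidamide), ABCC4 and ABCC1 lie below 0 between the lines, and chidamide changed ABCC4 in Raji and ABCC5 in Raji-4RH.

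In counts, 3 of the 5 tested members were called with chidamide in Raji-4RH, all 3 higher, against 43.3% of tested genes called higher, and 3 had groups that did not overlap, against 86.5%. In Raji 2 were called, both higher, against 31.5%, and 2 did not overlap, against 82.8%. The effect differed between the lines for 3 (ABCB1, ABCC4 and ABCC5), against 48.8% of tested genes. ABCB1, which entered the test only through its high group, is among the called members each time, and with 5 genes these counts are a description only.

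The other ABC genes give the setting of these changes. Of 40 listed, 38 were placed (TAP2 and ABCF1 were not) and 18 were tested. With chidamide 10 rose, 3 fell and 5 were not called in Raji-4RH, with a median difference of 0.30 beside 0.09 for all tested genes. Of all tested genes 43.3% were called higher there and 31.6% lower. In Raji 11 rose, 3 fell and 4 were not called, with a median of 0.28 beside 0.02 and shares of 31.5% and 28.5% over all genes. ABCA2, ABCA5, ABCA6, ABCB4 and ABCB9 passed the filter only through chidamide libraries and were called higher in both lines. These counts and medians are thus partly set by the filter. After quantile normalization these counts were 7 higher and 6 lower in Raji-4RH and 8 higher and 5 lower in Raji. The rises included subfamily A, the lipid transporters, of which 5 were tested with ABCA1 among them, and all 5 were called higher in Raji-4RH and 4 in Raji. Because ABCA2, ABCA5 and ABCA6 passed the filter only through chidamide libraries, these counts are a description. With quantile normalization 4 and 3 of them were. ABCA2, a lipid transporter of lysosomes, rose by 2.73 in Raji-4RH (limma adjusted p = 3.57e-07), from 0.389 and 0.451 FPKM to 7.16 and 9.82, and by 1.54 in Raji (limma adjusted p = 2.053e-05), from 0.730 and 0.517 to 3.85 and 3.58. It did not differ between the DMSO groups by the test (-0.19, limma adjusted p = 0.2006). ABCA5 rose by 1.25 in Raji-4RH (limma adjusted p = 3.251e-07), from 0.612 and 0.552 FPKM to 2.81 and 2.71, the only libraries through which it passed the filter. In Raji it rose by 0.33 (limma adjusted p = 0.00113). ABCA7, which moves phospholipids, rose by 1.12 in Raji (limma adjusted p = 0.0001145), from 16.96 and 14.68 FPKM to 35.5 in both libraries. In Raji-4RH it rose by 0.92 (limma adjusted p = 0.0001891), and the difference of these effects did not pass (-0.20, limma adjusted p = 0.3854). ABCA7 was also lower in Raji-4RH at baseline, with 6.59 and 6.52 FPKM and a difference of -1.15 (limma adjusted p = 5.087e-05).

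Subfamilies E and F have no membrane part and are tied to translation. Of them 3 genes were tested and 2 fell in each line, also after quantile normalization, and the remaining ABC gene that fell, in both lines, was ABCB10 of subfamily B, named after its values were seen. ABCF2 fell by 1.03 in Raji-4RH (limma adjusted p = 4.329e-07) and by 0.52 in Raji (limma adjusted p = 4.683e-05). ABCE1, which recycles ribosomes, fell by 0.96 in Raji-4RH (limma adjusted p = 2.697e-06) and by 0.61 in Raji (limma adjusted p = 8.362e-05). None of the 5 genes of subfamily G reached the filter. At baseline 5 of the 18 other ABC genes were higher in Raji-4RH, 8 lower and 5 not called, where 41.2% of all tested genes were called higher and 32.4% lower. Their median was -0.18 beside 0.06 for all genes. With chidamide in both lines 6 were higher, 9 lower and 3 not called, where 44.3% of all tested genes were called higher and 35.0% lower. ABCA5 and ABCB4, called higher here, passed the filter only through Raji-4RH chidamide. ABCA6, called lower here, passed only through Raji chidamide, so these counts are partly set by the filter. Among the 18 other ABC genes, ABCB4 was higher at baseline by 0.68 (limma adjusted p = 1.155e-05). TAP1, which carries peptides for antigen presentation, was lower at baseline by the test (-0.74, limma adjusted p = 2.235e-05). With chidamide in both lines ABCD3, a peroxisomal transporter of fatty acids, was lower in Raji-4RH (-0.82, limma adjusted p = 1.505e-05). The effect of chidamide differed between the lines for 5 of the 18, against 48.8% of all tested genes. Of these, ABCA2, ABCA5 and ABCB9 passed the filter only through chidamide libraries, so this count is partly set by it too.

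**Figure D4:**
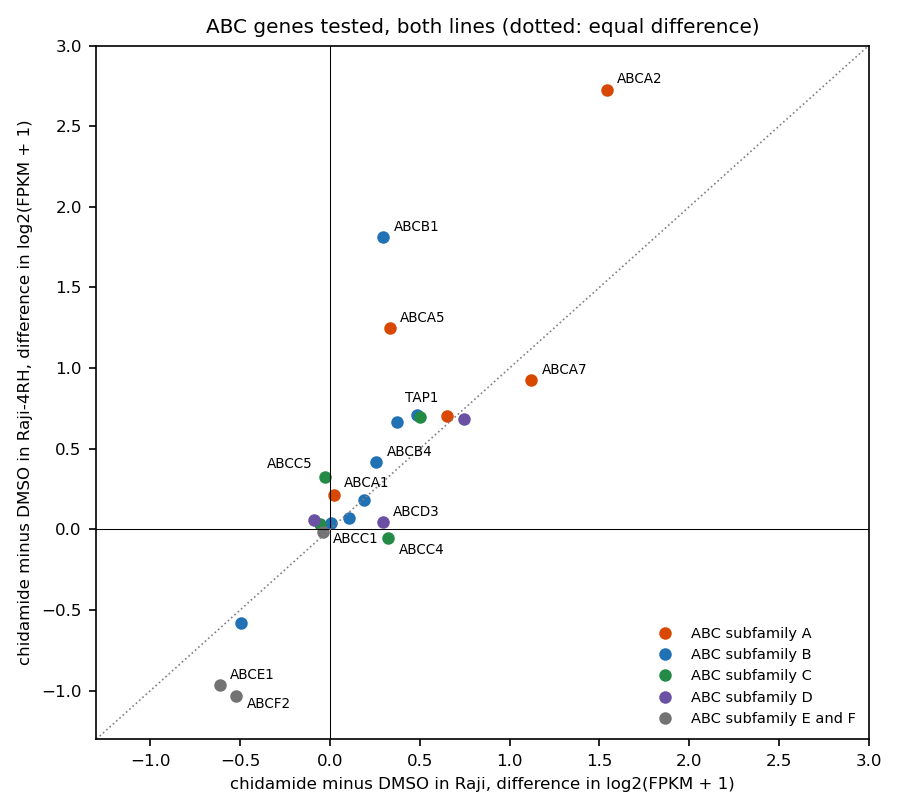
Chidamide minus DMSO in log2(FPKM + 1) for the 23 tested ABC genes, in Raji on the horizontal and in Raji-4RH on the vertical axis, coloured by subfamily, with the tested members and most of the other ABC genes named in the text labelled. ABCA2 (1.54 and 2.73) and ABCB1 (0.30 and 1.81) lie highest, ABCF2 and ABCE1 lowest, and the dotted line marks equal differences.

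Genes around the lipid exporters were described with a list for sterol efflux and the liver X receptors. Of its 22 genes 21 were placed and 18 tested, members included. With chidamide 10 rose and 5 fell in Raji-4RH, where 43.3% of all tested genes were called higher and 31.6% lower. In Raji 9 rose and 2 fell, where 31.5% were called higher and 28.5% lower. The list medians were 0.20 and 0.18, beside 0.09 and 0.02 for all tested genes. After quantile normalization the counts were 7 higher and 5 lower in Raji-4RH and 7 higher and 3 lower in Raji. The receptor genes differed at baseline in opposite directions. NR1H3 (LXR alpha) was higher in Raji-4RH by 1.03 (limma adjusted p = 4.368e-06), with 4.58 and 4.25 FPKM against 1.698 and 1.599 in Raji. NR1H2 (LXR beta) was lower, at 5.37 ± 0.197 against 13.65 ± 0.0501 FPKM (SD, n = 2), a difference of -1.20 (limma adjusted p = 7.101e-07). With chidamide NR1H3 fell by 0.25 in Raji (limma adjusted p = 0.02001) and rose by 0.21 in Raji-4RH (limma adjusted p = 0.03129), and the Raji-4RH call was lost after quantile normalization (limma adjusted p = 0.6762) and with median-centred libraries (limma adjusted p = 0.159). RXRA, the partner of both receptors, was below the filter, with 11 reads in the 2 Raji-4RH DMSO libraries and 168 with chidamide, and with 29 and 18 in the Raji groups. MYLIP, a liver X receptor target that removes the LDL receptor, rose by 1.42 in Raji-4RH (limma adjusted p = 5.521e-07), from 4.22 and 4.19 FPKM to 13.86 and 11.98. In Raji, MYLIP rose by 0.34 (limma adjusted p = 0.003493), from a higher level of 19.1 and 19.4 FPKM. SREBF2, which drives cholesterol synthesis and uptake, rose by 0.34 in Raji-4RH (limma adjusted p = 0.005526) and by 0.42 in Raji (limma adjusted p = 0.002572). LIPA, the acid lipase of lysosomes, rose by 1.28 in Raji (limma adjusted p = 1.403e-06). In Raji-4RH it also rose, from 3.58 ± 0.331 to 11.1 ± 0.214 FPKM (SD, n = 2). SCARB1, a receptor for HDL, fell by 0.79 in Raji-4RH (limma adjusted p = 7.604e-05). In Raji its mean went from 28.7 ± 1.81 to 24.8 ± 0.721 FPKM (SD, n = 2).

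Conjugating and redox enzymes prepare substrates for the subfamily C exporters. Of 21 listed genes 20 were placed and 18 tested. At baseline 14 were higher in Raji-4RH and 1 lower, where 41.2% of all tested genes were called higher and 32.4% lower. The list median was 0.53 beside 0.06 for all tested genes, and the counts were the same after quantile normalization. GSTP1, MGST1 and MGST2 passed the filter only through Raji-4RH libraries, and MGST3 only through Raji libraries. The baseline counts and the median are thus partly set by the filter. With chidamide 7 rose and 7 fell in Raji-4RH, where 43.3% of all tested genes were called higher and 31.6% lower. HMOX1, among these rises, passed the filter only through Raji-4RH chidamide, so this count is partly set by the filter as well. In Raji 6 rose and 6 fell, where 31.5% were called higher and 28.5% lower. NFE2L2 (NRF2), the activator of many such enzymes, was higher in Raji-4RH at baseline by 0.99 (limma adjusted p = 3.912e-06) and fell by 0.50 there with chidamide (limma adjusted p = 0.000242). KEAP1, which holds NFE2L2 for degradation, fell by 0.99 in Raji-4RH (limma adjusted p = 5.163e-07) and by 0.68 in Raji (limma adjusted p = 1.075e-05). HMOX1, heme oxygenase, rose by 2.76 in Raji-4RH (limma adjusted p = 3.572e-08), from 21 and 29 reads to 293 and 436 in the only libraries through which it passed the filter, and Raji had 1 and 1 reads with DMSO and 6 and 6 with chidamide. MGST3, a microsomal glutathione transferase, rose by 1.02 in Raji (limma adjusted p = 9.569e-06) and stood at 0.0492 FPKM or less on average in Raji-4RH.

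Of 18 other genes for drug carriers, all 18 were placed and 11 tested. With chidamide 4 rose and 5 fell in Raji-4RH, with a median of -0.16 beside 0.09 for all tested genes, of which 43.3% were called higher and 31.6% lower. In Raji 4 rose and 4 fell, with a median of 0.01 beside 0.02 and shares of 31.5% and 28.5% over all genes, and after quantile normalization 3 were higher and 2 lower. Of these genes ATP7B passed the filter only through chidamide libraries. The chidamide counts and medians of this list are thus partly set by the filter. At baseline 3 were higher in Raji-4RH and 7 lower, with a median of -0.33 beside 0.06 and shares of 41.2% and 32.4%. MVP, the major vault protein, rose by 2.02 in Raji-4RH (limma adjusted p = 1.277e-07) and by 1.87 in Raji (limma adjusted p = 5.011e-07), from 1.153 to 1.814 FPKM over the 4 DMSO libraries to 7.75 to 8.82 over the 4 chidamide libraries. SLC19A1, the carrier that brings folates and methotrexate into cells, fell by 1.28 in Raji-4RH (limma adjusted p = 8.032e-07) and by 0.98 in Raji (limma adjusted p = 9.502e-06).

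The genes most like each tested member over the 8 libraries were found by Pearson's r on log2(FPKM + 1) among the 9868 tested genes whose mean reached 1 FPKM. The 8 points form 4 groups of 2 libraries that share line and treatment, so high values are common and r is a description. ABCB1 was most like TMEM145 (r = 0.998) and RTN3 (r = 0.997), with 51 genes above 0.99. The group means of TMEM145 were 0.0380, 0.338, 0.991 and 9.77 FPKM in Raji DMSO, Raji chidamide, Raji-4RH DMSO and Raji-4RH chidamide. ABCC5 was most like CD7 (0.999) and GPATCH2L (0.999), and CD7, an antigen of T cells that was not on the marker list, had 0.0367, 0, 7.66 and 21.1 FPKM in the same order. ABCA1 was most like DENND5A (0.998) and STX2 (0.998), ABCC4 like SYK (0.996) and ERAP1 (0.996), and ABCC1 like PPP1R35 (0.995) and MPST (0.992).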

How the data were processed

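RNA-seq of 8 libraries, 2 per group, was used. The members and the gene lists were chosen with earlier results of these data known. The authors deposited FPKM values per gene, with a gene length and Ensembl IDs. The submitters' processing notes name HISAT2 2.0.5, SAMtools 1.7, HTSeq 0.9.1 and DESeq2 1.22.2, without their roles, and the build GRCh38. The annotation release is not given in the sources used here. Gene coordinates were read from GENCODE v29 (GRCh38).

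Multiplied by length and library total, 100% of the non-zero FPKM values were whole reads (tolerance 0.02). The totals were 13991697 to 21193441 reads and limit the precision of low genes. The table has 63967 labels for 63305 rows of values, and its last 662 rows repeat the first. Values were therefore taken from 0 to 14 rows below the label, by row ranges given for this work, and rescaled to the gene's own length. Of the labels, 18143 were placed and the rest left out, and a second ABCC1 label (ENSG00000278183, 0 reads) was not used.

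Differences were fitted with limma 3.58.1 in R 4.3.3 (trend, 1 mean per group, all 8 libraries) on log2(FPKM + 1) for the 10710 genes that reached 1 FPKM in 2 or more libraries, with calls under 0.05 after Benjamini-Hochberg adjustment. The script was tested on simulated data. Ratios are of mean FPKM, with exact 95% intervals from pooled reads. Between replicates, chi-square per gene was 1.77 in Raji chidamide, 2.33 in Raji-4RH DMSO, 5.25 in Raji DMSO and 13.5 in Raji-4RH chidamide. No library was thus a copy of another. The limma fit uses 1 spread per gene for all 4 groups, so it may understate the spread in Raji-4RH chidamide. Named genes were the 8 members, the 2 largest rises and falls among other called ABC genes per comparison of groups without overlap, NR1H2, NR1H3, RXRA, SREBF2, NFE2L2 and MYLIP, the largest rise and fall per list and chidamide comparison, and the 2 genes most correlated with each tested member. RUNDC3B, ABCB4 as a neighbour of ABCB1, ABCB10 and ABCC10 were described after their values were seen. ABCB9, ATP7B, GSTP1, MGST1 and MGST2 were named only for how they passed the filter. Values of 1 ABC gene that the rule names and of 1 listed B cell marker are not reported here.

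Alternatives were quantile normalization, median-centred libraries, a pseudocount of 0.1, no filter on low values, a filter on the mean (1 FPKM), no trend, limma voom on recovered reads, only the libraries compared, a replicate block, the rows as labelled, only rows shared by label and values, and leaving out each library. Added after seeing the data were ABCA1 and ABCG1 from 1 row higher or lower, voom without a filter, and a crossed pairing. Python 3.11.15, pandas 2.3.3, numpy 2.4.6, scipy 1.17.1 and matplotlib 3.10.9 were used.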

Additional observations from a re-analysis of the deposited data

Results flagged for a closer look

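The effect of chidamide differed between the lines, by a test of the difference itself on log2(FPKM + 1), for 3 members. For ABCB1 the rise was larger in Raji-4RH by 1.51 (limma adjusted p = 2.275e-05), with both chidamide libraries above both DMSO libraries in each line, and the value was -0.07 on recovered reads (limma voom adjusted p = 0.93). For ABCC5 the difference was 0.35 (limma adjusted p = 0.0101), with no overlap of groups in Raji-4RH and overlap in Raji. For ABCC4 it was -0.38 (limma adjusted p = 0.006295), with no overlap in Raji and overlap in Raji-4RH. Of all tested genes, 48.8% were called for this difference.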

How the results depend on the processing

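The depth limits ABCC3 and ABCG2, with at most 8 reads in a library, and ABCB1 in Raji DMSO, with 9 reads. Of 460 values of the 5 tested members under the alternatives, moved rows and voom without a filter left aside, 442 kept their direction and side of the threshold, 5 lost and 2 gained a call, and 11 changed sign. The cause of these changes was not tested. The number of members called with chidamide in Raji-4RH was 3, and it was 4 after quantile normalization, 2 with median-centred libraries, 5 without a filter and 5 with voom without a filter. In both fits without a filter ABCG1 and ABCC3 were also called. In Raji it was 2, and it was 1 after quantile normalization, 1 without Raji chidamide replicate 2 and 4 with voom without a filter. ABCG1 was also called in Raji in both fits without a filter. Leaving out each library gave 2 to 3 members in Raji-4RH, 1 to 2 in Raji, 3 for the difference between the lines and 5 for both comparisons of the lines. With only rows shared by label and values, where fewer genes are tested, 3326, 2702, 2178, 3258 and 3463 genes were called in place of 8022, 6421, 5231, 7882 and 8495 (chidamide in Raji-4RH and in Raji, their difference, the lines with DMSO and with chidamide). Signs changed as follows. With chidamide in Raji-4RH, ABCC1 was at -0.0456 with median-centred libraries and, leaving out 1 library, between -0.0718 and 0.134. In Raji, ABCC1 was at 0.0462 and ABCA1 at -0.0733 after quantile normalization, and ABCA1 was at -0.0197 with median-centred libraries. Leaving out 1 library gave ABCA1 in Raji -0.0702 to 0.114 and ABCC5 in Raji -0.0562 to 0.0040, with ABCA1 at -0.0115 without Raji chidamide replicate 2 and ABCC5 at 0.0016 without Raji chidamide replicate 1. For the difference between the lines, ABCB1 was at -0.0713 with voom and at -0.0710 with voom without a filter, and ABCC1, leaving out 1 library, was between -0.0177 and 0.188, with Raji-4RH chidamide replicate 2 and replicate 1 left out. Read 1 row lower, ABCA1 was at -0.129 between the lines with DMSO and at -0.0302 with chidamide. Read 1 row higher, ABCG1 was at -0.759 between the lines with chidamide, so both rest on the placement. In the row of its label ABCA1 had 0 reads and gave no value. The replicate numbers did not pair the libraries (6 correlations of deviations, from -0.279 to 0.166). A replicate block gave 3 and 2 members called with chidamide in Raji-4RH and Raji, 3 for the difference and 5 and 5 between the lines, the same counts as without it. Between the lines with DMSO the correlation was -0.155, and pairs within these groups gave 7992 genes called with the same numbers and 8542 with crossed numbers. For chidamide in Raji-4RH, with a correlation of 0.166, they gave 7631 genes and 3 members with the same numbers and 6975 genes and 2 members with crossed numbers.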
